A study of Mus musculus with 4 samples.

Results

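Cells push their edge forward by assembling actin filaments against the membrane, and the 9 genes described here encode proteins that start or lengthen such filaments. N-WASP (Wasl) and the WAVE proteins (Wasf1, Wasf2) activate the Arp2/3 complex, which builds branches on existing filaments. The Ena/VASP proteins (Enah, Vasp, Evl) bind growing filament ends and favour their elongation, and the Diaphanous formins (Diaph1, Diaph2, Diaph3) nucleate and elongate unbranched filaments. The question here is whether the mRNAs of these genes take a different share of the RNA in protrusions than in the rest of the cell.

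The members were all probe sets whose only gene symbol in the platform annotation was one of these 9, which gave 24 of the 45037 non-control probe sets on a mouse whole-genome expression array. The gene ID of all 24 matched the same symbol in RefSeq, and 0 probe sets were shared between a member and another symbol. There were 2 arrays of pseudopodia and 2 arrays of cell bodies, all from NIH/3T3 cells, an established line of mouse embryo fibroblasts. All 4 samples came from cells grown in medium with 10% calf serum and then placed in serum-free medium above a porous membrane whose lower face carried fibronectin, left for 1 h to protrude and then fixed with formaldehyde. The compartments were parted by wiping the membrane by hand, and each array holds bulk RNA of 1 compartment. No genetic change or further treatment is given in the labels, and every sample was stimulated by fibronectin, so the arrays hold no unstimulated state. The samples of a compartment are called independent in the design text. Separate cultures are not mentioned, so the p-values reflect the spread of these arrays alone, and that spread may be technical.

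The arrays were alike in scale. The median intensity was 41.2 and 45.6 for pseudopodia and 44.3 and 40.5 for cell bodies, with an exact floor of 20 that held 30.5% to 34.8% of probe sets. Across tested genes, which are not independent replicates, arrays correlated at 0.983 within pseudopodia, 0.984 within cell bodies and 0.949 to 0.957 between the compartments. Of 13 fibroblast markers measured, 12 lay above the filter on dim genes and Thy1 lay at the floor. Their summed intensity was 59837 to 60698 in pseudopodia and 76326 to 84201 in cell bodies. Of the 12 above the filter, 4 were called lower in pseudopodia (Col1a1, Col1a2, Pdgfra and Pdgfrb), 0 were called higher, and in 10 both pseudopodia arrays lay below both cell body arrays, as in 31.4% of all tested genes. Of the endothelial markers 1 of 7 lay above the filter (Pecam1, Emcn and Tie1 at the floor), with sums of 293 to 404 in pseudopodia and 305 to 327 in cell bodies, and of the haematopoietic markers 5 of 9 (Itgam at the floor), with sums of 468 to 487 in pseudopodia and 441 to 461 in cell bodies. Of the epithelial markers 7 of 12 did (Krt18 and Esrp1 at the floor), with sums of 3073 to 3075 in pseudopodia and 3402 to 4086 in cell bodies, most of it Krt14. RNAs known to gather in protrusions were called higher in pseudopodia at 8 of 9 genes, beside 5.92% of all tested genes. The other, Ddr2, differed by 0.28 (log2) with overlapping arrays. Some of the 9 were first picked from these same samples, so the count is no independent check of the compartments. For the Actb control, the 3′ probe set exceeded the 5′ one by 0.56 and 0.65 (log2) in pseudopodia, against 0.37 and 0.36 in cell bodies. The same difference hardly separated the compartments for Gapdh and pyruvate carboxylase (0.026 and 0.069 higher in pseudopodia on average), and for 18S ribosomal RNA it was 2.46 and 1.35 in pseudopodia, against 2.77 and 3.06 in cell bodies. The part of RNA quality or of marker levels in the results below was not tested.

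Among the 9 genes, Diaph2, Diaph3, Enah and Wasl were higher in pseudopodia, and 0 were lower. The difference ran from 1.81-fold for Wasl to 2.89-fold for Diaph3. The other members, Wasf1, Wasf2, Vasp, Evl and Diaph1, were not past the test, with differences between -0.27 and 0.28 on the log2 scale. The median log2 difference, pseudopodia minus cell bodies, was 0.28 over the 9 genes and -0.00195 over all 11320 genes tested. The test was limma on log2(intensity + 1), with each gene read from its brightest probe set and p adjusted by Benjamini-Hochberg over all tested genes, and a gene was called where the adjusted p lay under 0.05. By that rule 5.92% of all genes were called higher and 8.69% lower. The calls need all 4 arrays: with any 1 of the 4 left out, every call of the whole table was lost. The differences of the 4 called members then stayed above 0. That was fixed in advance, since their pseudopodia arrays all lay above their cell body arrays. All 9 genes passed the filter on dim values, as did 21 of the 24 probe sets.

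**Figure D1:**
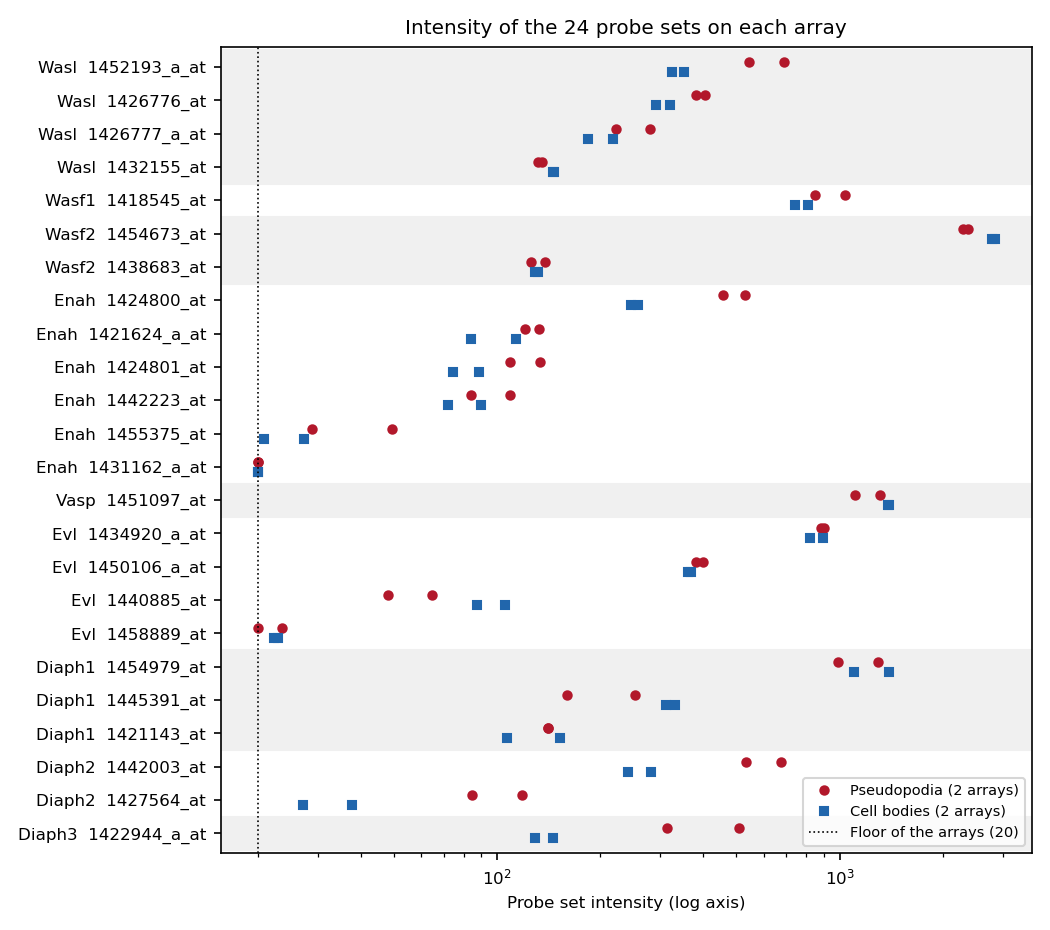
Intensity (log axis) of each of the 24 probe sets on the 2 pseudopodia arrays (red circles) and the 2 cell body arrays (blue squares), grouped by gene, with the floor of 20 as a dotted line. The pseudopodia arrays lie clear above the cell body arrays for both Diaph2 probe sets, for Diaph3, and for the brightest probe sets of Enah and Wasl. These are not the only ones: both arrays were higher at 11 of the 21 tested probe sets and lower at 5. Over all tested probe sets these shares were 28.7% and 30.9%.

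The formins showed the widest contrast within a family. Diaph3, an mDia formin that also acts in the cytokinetic ring, had intensities of 313 and 507 on the pseudopodia arrays, against 146 and 129 on the cell body arrays. The compartments did not overlap, and the pseudopodia arrays also stood further apart from each other than those of cell bodies. The log2 difference was 1.53 (SE 0.26, adjusted p = 0.0270), the 51st highest of 11320 genes. Diaph3 rests on 1 probe set.

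Diaph2, which encodes mDia3 (the mouse protein numbers do not follow the gene numbers), read 532 and 676 on the pseudopodia arrays, against 241 and 281 on the cell body arrays. The compartments did not overlap, and the log2 difference was 1.20 (SE 0.18, adjusted p = 0.0215), a 2.30-fold rise. Its second, dimmer probe set read 84.3 and 118 in pseudopodia, against 37.8 and 27.2 in cell bodies. It differed in the same direction, by 1.61 (SE 0.26, adjusted p = 0.0311 in the fit of single probe sets), a size that is uncertain because the cell body values lie just over the floor. Diaph2 was the only member with over 1 tested probe set in which all of them were called.

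Diaph1, which encodes mDia1, did not share the difference. Its brightest probe set read 990 and 1294 in pseudopodia, against 1099 and 1398 in cell bodies. These ranges overlap, and the log2 difference was -0.13 (adjusted p = 0.722), with a 95% interval of -0.67 to 0.41. Its other probe sets pointed to opposite sides of 0. The probe set 1445391_at read 160 and 253 in pseudopodia, against 331 and 312 in cell bodies, a log2 difference of -0.67 (adjusted p = 0.169 among probe sets) whose arrays did not overlap. The probe set 1421143_at read 141 and 141 in pseudopodia, against 107 and 153 in cell bodies, a difference of 0.14 with overlapping arrays. Ratios within each array were taken from the brightest probe sets, so they restate the differences above and are no further test. That of Diaph3 to Diaph1 was 3.16 times higher in pseudopodia (1.66 on the log2 scale, SD within compartments 0.30). That of Diaph2 to Diaph1 was 2.52 times higher (1.33, SD 0.065), with no overlap of arrays in either. The ratio of Diaph3 to Diaph2 differed by 0.33 with overlap. An exact permutation test of such a ratio was not made, since 4 arrays allow no p below 33.3%.

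In the Ena/VASP family, Enah was called at its brightest probe set, and Vasp and Evl were not called. Whether Enah differed from the others was not tested. Enah (Mena), which in fibroblasts sits at the tips of lamellipodia and filopodia and in adhesions, read 456 and 531 on the pseudopodia arrays, against 257 and 246 on the cell body arrays. Both pseudopodia arrays were clear of both cell body arrays. The log2 difference was 0.96 (SE 0.15, adjusted p = 0.0214), a 1.95-fold rise. Its 3 other tested probe sets also lay above 0 and were not called. The probe set 1424801_at, annotated to the same source sequence as the brightest, read 133 and 109 in pseudopodia, against 88.9 and 74.4 in cell bodies (0.56, adjusted p = 0.126 among probe sets). The probe set 1421624_a_at read 132 and 121 in pseudopodia, against 114 and 83.9 in cell bodies (0.37, adjusted p = 0.302). The probe set 1442223_at read 84.2 and 109 in pseudopodia, against 72 and 90.1 in cell bodies (0.25, adjusted p = 0.501), with overlap. The Enah call thus rests on 1 of 4 tested probe sets, with the size between 0.25 and 0.96 depending on the probe set. Averaged over those 4, the difference was 0.54 (adjusted p = 0.0610) and was not called. Another, 1455375_at, read 49.4 and 28.9 in pseudopodia, against 27.3 and 20.9 in cell bodies, and was too dim to test, and 1431162_a_at lay at the floor on all 4 arrays.

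Vasp, a founding member of the family and a substrate of cyclic nucleotide-dependent kinases, read 1311 and 1106 in pseudopodia, against 1387 and 1390 in cell bodies. Both pseudopodia arrays were lower, but the log2 difference of -0.21 (SE 0.15, adjusted p = 0.414) was not past the test, with a 95% interval of -0.59 to 0.18. Evl, the other family member, read 904 and 881 in pseudopodia, against 896 and 821 in cell bodies, a difference of 0.057 (SE 0.13, adjusted p = 0.813) with overlap and an interval of -0.29 to 0.40. Its second probe set, 1450106_a_at, gave 0.097. Another, 1440885_at, stood apart from these: it read 48.2 and 64.4 in pseudopodia, against 87.4 and 105.9 in cell bodies. That is a log2 difference of -0.78 (SE 0.21, adjusted p = 0.0858 among probe sets), in a dim range and without overlap of arrays. Its adjusted p was 0.0418 with median centring of the arrays and 0.0425 with the replicate number as a block, so this lower reading of Evl depends on the setting. The remaining Evl probe set lay at or near the floor. Ratios within arrays again used the brightest probe sets, which for Enah is the 1 that was called, and add no further test. That of Enah to Vasp was 2.25 times higher in pseudopodia (1.17 on the log2 scale, SD within compartments 0.24). That of Enah to Evl was 1.88 times higher (0.91, SD 0.13), both without overlap. The share of all gene pairs without such overlap was not computed. With the mean over probe sets, Enah lay at 0.54, Vasp at -0.21 and Evl at -0.21, none of them called.

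**Figure D2:**
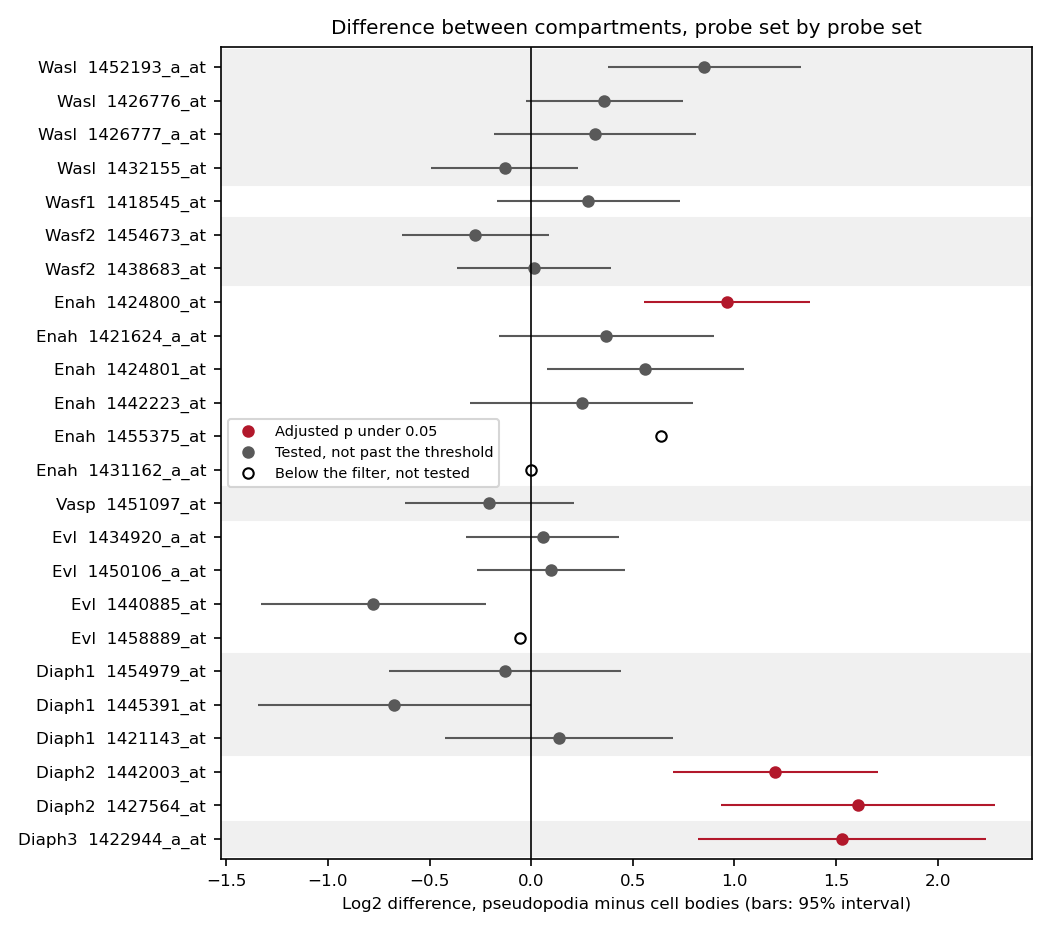
Log2 difference, pseudopodia minus cell bodies, of each of the 24 probe sets with its 95% interval from the limma fit of single probe sets. The 4 probe sets past an adjusted p of 0.05 (red) belong to Enah, Diaph2 and Diaph3, grey ones were tested and not past it, and the 3 open circles lay below the filter.

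Of the promoters of Arp2/3, Wasl was called higher at its brightest probe set, and Wasf1 and Wasf2 were not called. Whether Wasl differed from Wasf1 was not tested, and with the mean over probe sets they lay at 0.35 and 0.28 on the log2 scale, neither called. Wasl encodes N-WASP, which Cdc42 and phosphoinositides release from autoinhibition. Its brightest probe set, 1452193_a_at, read 543 and 688 in pseudopodia, against 324 and 353 in cell bodies, with no overlap. The log2 difference was 0.85 (SE 0.17), with adjusted p = 0.0376 over genes and adjusted p = 0.0510 in the fit of single probe sets, so the call sits at the threshold. Probe set 1426776_at read 406 and 380 in pseudopodia, against 321 and 291 in cell bodies (0.36, adjusted p = 0.193 among probe sets). Probe set 1426777_a_at read 223 and 279 in pseudopodia, against 218 and 184 in cell bodies (0.31, adjusted p = 0.349). These 3 probe sets are annotated to the same source sequence, and all lay above 0 without overlap of arrays, at sizes from 0.31 to 0.85. The other, 1432155_at, read 136 and 132 in pseudopodia, against 147 and 146 in cell bodies, a difference of -0.13 (adjusted p = 0.594). Averaged over its 4 probe sets, Wasl differed by 0.35 (adjusted p = 0.164) and was not called. Without probe sets marked as matching several transcripts it was read from 1426776_at and was not called either (adjusted p = 0.179).

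Wasf1 encodes WAVE1, an effector of Rac in membrane ruffles. It read 1039 and 850 in pseudopodia, against 740 and 809 in cell bodies. The arrays did not overlap, and the log2 difference was 0.28 (SE 0.16, adjusted p = 0.312), with a 95% interval of -0.14 to 0.70. Wasf2 encodes WAVE2, which drives lamellipodia in fibroblasts. It read 2365 and 2293 in pseudopodia, against 2846 and 2787 in cell bodies. Both pseudopodia arrays lay below both cell body arrays. The log2 difference was -0.27 (SE 0.13, adjusted p = 0.219), with an interval of -0.60 to 0.053. Its dim second probe set gave 0.014. From the brightest probe sets, the ratio of Wasl to Wasf2 within arrays was 2.18 times higher in pseudopodia (1.13 on the log2 scale, SD within compartments 0.21). That of Wasl to Wasf1 was 1.49 times higher (0.57, SD 0.32) and that of Wasf1 to Wasf2 1.47 times (0.55, SD 0.15), each without overlap. The ratios with Wasl depend on that choice of probe set. With the mean over probe sets, Wasl lay at 0.35, Wasf1 at 0.28 and Wasf2 at -0.13, none of them called.

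Read probe set by probe set, 4 of the 21 tested were called higher (1 of Enah, 2 of Diaph2 and 1 of Diaph3) and 0 lower, where 4.3% of all 22519 tested probe sets were called higher and 7.44% lower. Of the 21, 15 lay above 0, beside 49.6% of all. At 11 of them both pseudopodia arrays were above both cell body arrays and at 5 both were below, where 28.7% and 30.9% of all probe sets did so. Over genes these numbers were 5 and 2 of 9, beside 29.5% and 31.4% of all tested genes. Probe sets of a gene disagreed in sign for Wasl, Wasf2, Evl and Diaph1, and had 1 sign for Enah and Diaph2, while Wasf1, Vasp and Diaph3 had 1 probe set each. The widest spread between tested probe sets of 1 gene was that of Wasl, at 0.98 on the log2 scale. The members were chosen with earlier results of these data known, so these counts describe the genes and do not set the group apart from others.

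The partners of these proteins were called higher at a rate near that of all genes. Of 43 tested genes on 6 lists of partners and related actin nucleators, 3 were called higher in pseudopodia (6.98%, beside 5.92% of all genes) and 1 lower. Their median log2 difference was 0.16, and 31 of the 43 lay above 0, beside 49.7% of all genes. At 21 of the 43 both pseudopodia arrays were above both cell body arrays and at 5 both were below. All tested genes did so at 29.5% and 31.4%. The numbers for members and partners were not tested against each other.

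Of 10 tested partners of N-WASP, 1 rose and 1 fell, with a median of -0.058. Fnbp1l (Toca-1), an F-BAR protein that activates N-WASP with Cdc42, read 402 and 381 in pseudopodia, against 193 and 213 in cell bodies, a log2 difference of 0.94 (SE 0.14, adjusted p = 0.0201). Baiap2 (IRSp53), a membrane-bending scaffold that binds WAVE2 and Ena/VASP proteins, went the other way, at 629 and 877 in pseudopodia, against 1705 and 2128 in cell bodies. It fell by 1.36 on the log2 scale (SE 0.22, adjusted p = 0.0250). Its 3 other probe sets also lay below 0, at -0.68 (adjusted p = 0.0462 among probe sets), -0.24 and -0.20. Baiap2 was counted on this list only, and not among the partners of Ena/VASP or WAVE proteins below. The adaptor Nck1 had the highest difference on this list, 0.97, at dim intensities and not past the test (adjusted p = 0.0810).

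Of 8 tested partners of Ena/VASP proteins, 1 rose, with a median of 0.084. That was Pfn2, a profilin, which delivers actin monomers to proline-rich elongators. It read 1246 and 1038 in pseudopodia, against 735 and 652 in cell bodies (0.72, SE 0.16, adjusted p = 0.0490), and its other probe sets gave 0.61 (adjusted p = 0.0925 among probe sets) and 0.91 (adjusted p = 0.0353). Pfn1, the main profilin of most cells, had the lowest difference, -0.14 (adjusted p = 0.576). Raph1 (lamellipodin), which recruits Ena/VASP proteins to the leading edge, had the highest, 0.96 (SE 0.22, adjusted p = 0.0532), just short of the threshold.

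Of 6 tested formins outside the Diaphanous group, 1 rose: Fmnl2, a Cdc42 effector of lamellipodia, at 367 and 420 in pseudopodia, against 248 and 182 in cell bodies (0.88, SE 0.20, adjusted p = 0.0493). The lowest was Fhod1, at -0.40 (adjusted p = 0.205), and the list median was 0.34. Of 9 other nucleation promoters and nucleators 0 were called, with a median of 0.17. The highest of them was Washc4, of the endosomal WASH complex, which read 340 and 462 in pseudopodia, against 192 and 105 in cell bodies (1.47, SE 0.33, adjusted p = 0.0501). Its 3 other tested probe sets lay above 0 as well, and 1 of them was called (0.92, adjusted p = 0.0418 among probe sets). The lowest was Spire2, at -0.11.

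Tested genes of the complexes that the members act in or through were not called. Of the 8 listed partners in the WAVE regulatory complex, Cyfip1 had no probe set of its own. Cyfip2, Nckap1l and Abi3 lay below the filter, and none of these was tested. Of 4 tested partners in the WAVE regulatory complex, 0 were called, with a median of 0.36, and the differences ran from 0.15 for Brk1 to 0.50 for Nckap1 (adjusted p = 0.0661). In all 4 both pseudopodia arrays were above both cell body arrays, as in 29.5% of all tested genes. Of 6 tested subunits of the Arp2/3 complex 0 were called, from 0.063 for Arpc4 to 0.35 for Arpc1a (adjusted p = 0.156), with a median of 0.16. The 4 other listed Arp2/3 subunits had no probe set of their own in the annotation used and were not analysed here.

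**Figure D3:**
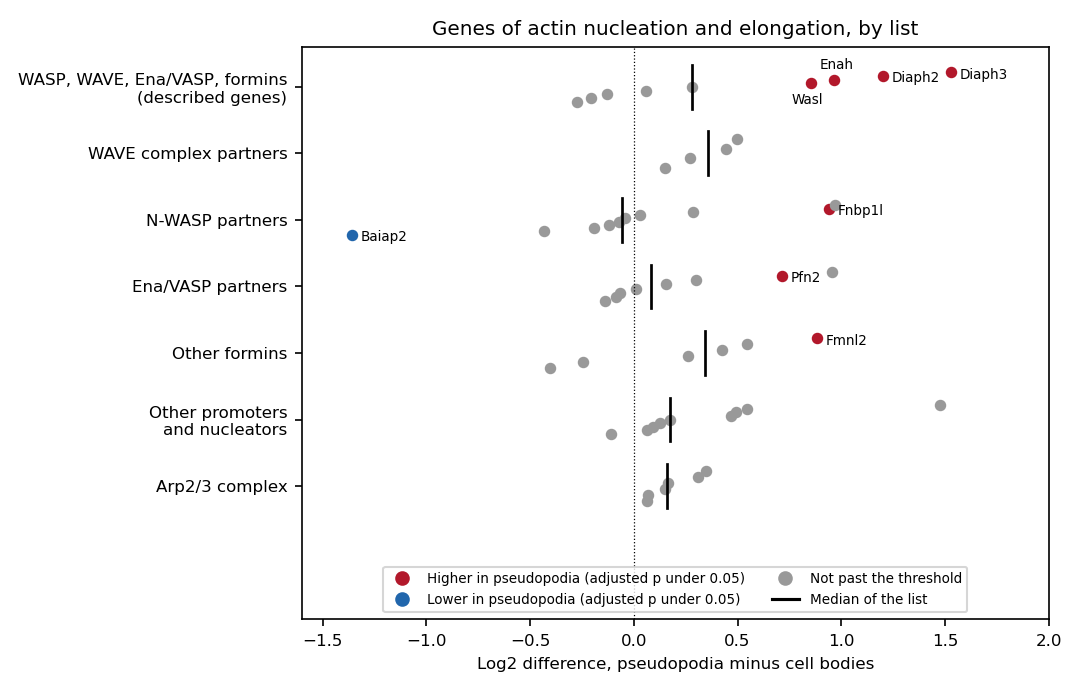
Log2 difference, pseudopodia minus cell bodies, of each tested gene on the list of 9 members and on the 6 lists of partners, with the list median as a black bar. Red genes were called higher and blue lower; the 4 red members are Diaph3, Diaph2, Enah and Wasl, and Baiap2 is the only blue gene.

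The genes whose readings over the 4 arrays, each centred on its mean log2 value, lay closest to those of Diaph3 were Dzip3, Gtf2h1 and Pcm1. Dzip3, a RING-type ubiquitin ligase, was at a Euclidean distance of 0.15 and read 192 and 298 in pseudopodia, against 98.9 and 79.5 in cell bodies. Gtf2h1, a subunit of the general transcription factor TFIIH, was at 0.21 and had a log2 difference of 1.46. Pcm1, a scaffold of centriolar satellites, was also at 0.21, with 1.40. A likeness over 4 arrays is a description only.

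Across processing settings the 4 called members kept their sign, and their calls did not. With an array left out the sign could not turn, since their arrays did not overlap. Enah was called under 6 of 12 alternatives, Diaph2 under 7 of 12, Diaph3 under 6 of 11 and Wasl under 5 of 12. In bulk extracts, fewer cells or protrusions that hold a transcript and less of it in each cannot be told apart, and a higher share in pseudopodia does not give an amount per cell.

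**Figure D4:**
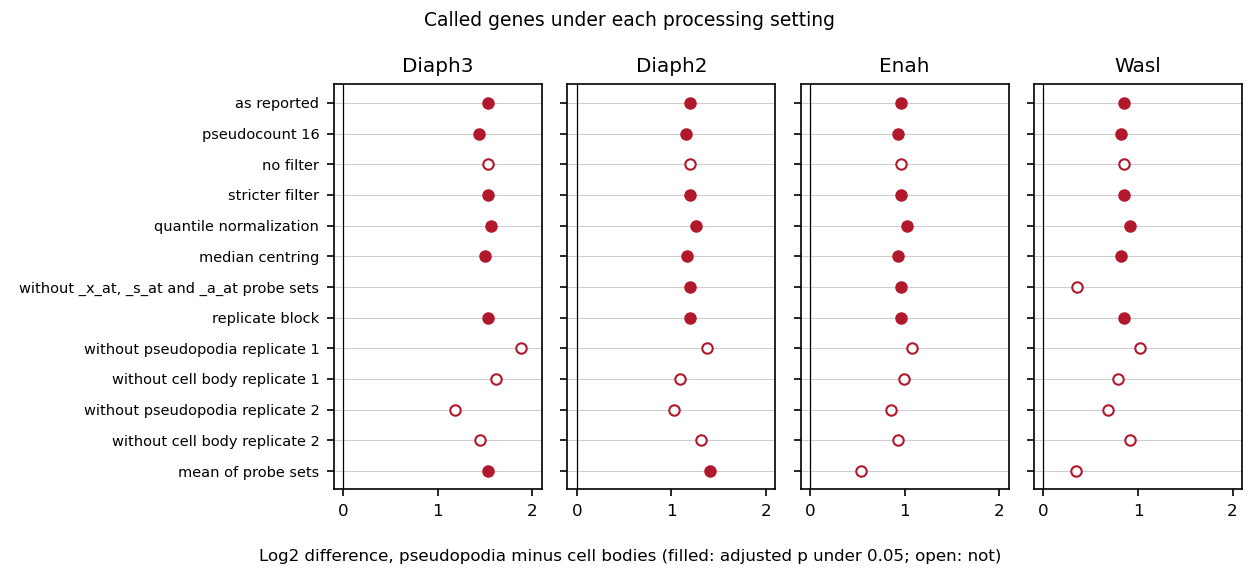
Log2 difference, pseudopodia minus cell bodies, of Diaph3, Diaph2, Enah and Wasl as reported and under each processing alternative, with filled circles for an adjusted p under 0.05. Every point lies above 0; no circle is filled without a filter or with any array left out, and the Diaph3 probe set is itself among those dropped in the setting without _x_at, _s_at and _a_at probe sets.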

How the data were processed

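The authors deposited linear intensities of probe sets for 4 arrays, of the type Mouse430_2 per the file headers of the array records. The summary of probes, the scaling of arrays and the tools behind them are steps not given in the sources used here. Per the labels' protocols, cells were fixed in 0.3% formaldehyde for 10 min, crosslinks were reversed at 70 °C for 45 min and RNA was extracted with Trizol LS. Groups came from the sample titles.

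Computed here were log2(intensity + 1) values and 2 fits by limma 3.58.1 in R 4.3.3 (lmFit, eBayes, two-sided, no covariate, 2 residual and 2.9 prior degrees of freedom, Benjamini-Hochberg). The 64 controls were left out, and so were features with a mean log2 value under the median of the others (5.42, an intensity of 42). The first fit took each gene's brightest 1-symbol probe set (11320 genes), the second every probe set (22519). A fold is the antilog of a log2 difference and understates the change of dim probe sets. SDs rest on n = 2 arrays per compartment. SEs and intervals are the moderated ones of limma. They combine a feature's own spread (2 residual degrees of freedom) with a prior from all tested features (2.9). A printed SE is thus not the spread of that gene's arrays alone. That of Wasf2 was 0.13 as reported and 0.026 without a filter, at the same difference. Levels of different probe sets are not comparable, so no order of levels is given. Unstated build and annotation mean that no coordinates are given. The fits were also tried on simulated data with 200 changed genes. The outcome is not reported here and lends the calls no support.

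Members and lists were chosen with earlier results of these data known. All members were named; of each partner list (1 more is not reported here), every called gene and the highest and lowest difference; for likeness, the 3 genes nearest to the called member with the highest difference. The alternatives tried were another pseudocount, filter, scaling, choice of probe sets, a replicate block and each array left out.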

Additional observations from a re-analysis of the deposited data

How the results depend on the processing

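Depending on the setting, the count of the 9 genes called higher was 4 as reported, 0 without a filter, 2 without probe sets marked as matching several transcripts (where Diaph3 has none left and Wasl is read from another), 2 with the mean of a gene's probe sets, and 0 with each array left out in turn. It was 4 with a pseudocount of 16, the stricter filter, quantile normalization, median centring and the replicate block. Over all genes, those called higher in these 5 settings were 793 of 11311, 870 of 9771, 840 of 11318, 758 of 11320 and 988 of 11320. They were 564 of 9710 without probe sets marked as matching several transcripts and 640 of 11320 with the mean of probe sets. Probe sets called higher were 4 as reported, 0 without a filter and 0 with each array left out. Probe sets called lower were 0 as reported and 1 (Evl, 1440885_at) with median centring and with the replicate block. Over all genes 1654 were called as reported, 2 without a filter (3844 at an unadjusted p under 0.05, against 3553) and 0 with any array left out. Over all probe sets these counts were 2645, 73 and 0. With an array left out, the lowest and highest log2 differences were 1.18 and 1.88 for Diaph3 and 1.03 and 1.37 for Diaph2. They were 0.85 and 1.07 for Enah and 0.68 and 1.02 for Wasl. The Wasl probe set 1452193_a_at, at adjusted p = 0.0510, was called under 5 alternatives (0.0305 to 0.0413).

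Differences near 0 changed sign. Evl was at -0.78 without probe sets marked as matching several transcripts, at -0.21 with the mean of probe sets and ran from -0.0061 (without cell body replicate 2) to 0.12 with an array left out, as did its probe set 1434920_a_at. With an array left out, Diaph1, gene and brightest probe set, ran from -0.32 to 0.062 (above 0 also, at 0.043, when cell body replicate 2 was dropped), its probe set 1421143_at from -0.11 to 0.39 and the Wasf2 probe set 1438683_at from -0.051 to 0.080. The last was at -0.020 with median centring. Apart from settings that leave out probe sets or arrays by construction, the cause was not tested.

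The replicate numbers are not stated to mark a shared culture or day. Deviations of same-numbered arrays correlated at 0.342. With the number as a replicate block, 4 of 9 genes were called higher, with adjusted p from 0.0179 (Diaph2) to 0.0252 (Wasl). Of all 11320 tested genes, 988 were called higher and 1214 lower in that setting, 2202 in all.

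Quantile normalization moved the median of all genes to 0.053 from -0.00195 on the log2 scale and median centring moved it to -0.0358, and neither turned the sign of a called member. Of the called genes, 40.5% were higher in pseudopodia as reported, 48.4% with quantile normalization and 37.7% with median centring. Values near the floor of 20 (the dimmer Diaph2 probe set, 2 of Enah and 1 of Evl) limit what can be read from dim probe sets.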
